A study of Mus musculus with 8 samples.

Results

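The 10 genes described here mark the choroid plexus, the secretory epithelium that lies in the brain ventricles beside the ventricular-subventricular zone (V-SVZ). They were taken by symbol: Ttr, Enpp2, Ecrg4, 2900040C04Rik, Igfbp2, Calml4, Sostdc1, Kl, Folr1 and Htr2c, 10 of the 32285 genes counted. Their RNA was followed through 3 classes of droplet barcode. Ttr-rich barcodes held at least 20 UMIs (unique molecular identifiers, each standing for 1 captured RNA molecule) over Ttr, 2900040C04Rik and Ecrg4 together. Nuclei outside held at least 300 detected genes and fewer than 20 of those UMIs. Their name rests on the number of genes alone, and their mitochondrial share is given below. Low-count barcodes held at least 100 and fewer than 200 genes and fewer than 20 of those UMIs. Because 3 of the 10 genes define the Ttr-rich class, the levels of all 10 in that class against the rest are given as descriptions with no test.

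The data are single-nucleus RNA-seq from micro-dissected V-SVZ tissue at postnatal day 90, with 1 library for each of 8 mice, 4 with the genotype Tsc2 mut/mut and 4 controls with Tsc2 wt/wt. The study asked how loss of Tsc2, a brake on mTOR signaling, changes the transcripts of neural stem cells (NSCs) in vivo. The paper used mice on C57BL/6 strains with a ROSA26 CAG-tdTomato reporter. It describes pups with an inducible Nes-cre/ERT2 transgene that received tamoxifen, and pups electroporated with a Cre plasmid. Its methods do not say which of these routes the mice sequenced here had. The mutant mice also carried the conditional Tsc2tm1.1Mjg allele. With the transgene, recombination depends on nestin promoter activity at the time of tamoxifen. The labels do not give the sex of a mouse. From each mouse, 100000 tdTomato-positive nuclei were sorted after trypsin dissociation and freezing, with doublets gated out. A 3′ tag of Tsc2 lies outside the deleted part of a conditional allele and checks nothing: over all barcodes its level was 10.4 ± 1.495 CPM in the mutant mice (UMIs of a gene per 1000000 UMIs counted; mean ± SD, n = 4), beside 11.2 ± 1.07 CPM in the controls.

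The choroid plexus makes the cerebrospinal fluid and loads it with carrier proteins, growth factor regulators and nutrients. Ttr encodes transthyretin, which carries thyroid hormone and retinol-binding protein. Enpp2 encodes autotaxin, which makes lysophosphatidic acid, and is also known from myelinating oligodendrocytes. In droplet assays, RNA freed from broken cells enters droplets whether or not they hold a nucleus, so transcripts of a very active gene can be counted in barcodes of other cells.

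The gene positions below are on GRCm38 with the GENCODE M21 annotation. Of the secreted proteins, Enpp2 lies at chr15:54838901-54952892 on the minus strand, where it shares exon bases with Gm26684 on the other strand. Ecrg4, the precursor of a secreted peptide, lies at chr1:43730602-43742578 (plus), Igfbp2, which binds insulin-like growth factors, at chr1:72824503-72852474 (plus), and Sostdc1, an antagonist of BMP and Wnt signals, at chr12:36314139-36318452 (plus). Of the receptors and transport genes, Folr1, the folate receptor that carries folate into the fluid, lies at chr7:101858331-101870788 (minus) and overlaps Anapc15 on the other strand without shared exon bases. Kl, which encodes klotho, a co-receptor for a fibroblast growth factor, lies at chr5:150952607-150993817 (plus), and Htr2c, a serotonin receptor, at chrX:146962513-147197277 (plus) with 8 small RNA genes within it. Calml4, a calmodulin-like protein gene, lies at chr9:62858080-62875921 (plus). 2900040C04Rik is annotated as a lincRNA gene of 871 bases with 1 transcript at chr14:76251457-76252327 (plus). Whether reads were assigned by strand or within introns is not given in the sources used here, so counts of Enpp2, Ecrg4, Calml4 and Folr1 could include reads of the overlapping gene.

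Promoters of 6 of the 10 genes were held in the RefSeq table for GRCm38.p6, from 250 bases before to 50 bases after a gene's start. The 2 shown are those of the genes with the highest and lowest mean share of UMIs in Ttr-rich barcodes, as described below. These are 2900040C04Rik with 96.3% and Igfbp2 with 33.8%. Capitals mark GGGCGG, a GC box.
2900040C04Rik (chr14:76251212-76251511, plus): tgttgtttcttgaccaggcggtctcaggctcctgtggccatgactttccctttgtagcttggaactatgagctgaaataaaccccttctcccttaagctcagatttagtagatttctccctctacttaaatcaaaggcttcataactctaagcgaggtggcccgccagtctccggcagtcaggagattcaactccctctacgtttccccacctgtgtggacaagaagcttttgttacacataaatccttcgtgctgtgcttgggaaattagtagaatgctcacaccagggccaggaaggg
Igfbp2 (chr1:72824230-72824529, plus): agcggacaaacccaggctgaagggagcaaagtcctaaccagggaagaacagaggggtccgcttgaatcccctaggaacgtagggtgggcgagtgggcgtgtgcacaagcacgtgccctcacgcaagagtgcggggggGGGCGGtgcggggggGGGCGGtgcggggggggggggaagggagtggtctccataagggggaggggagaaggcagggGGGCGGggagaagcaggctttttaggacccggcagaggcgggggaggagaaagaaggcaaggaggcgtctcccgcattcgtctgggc
The first has a GC content of 48.3% and no GC box, and the second has a GC content of 67.0% and 3, beside a median GC content of 52.7% over all 32851 promoters held. Another promoter held for Igfbp2, at chr1:72825137-72825436 and not shown, has a GC content of 57.3% and no GC box. Of 5 motifs searched on both strands, GGGCGG or CCGCCC was found in 3 of the 7 promoters of these genes (those of Igfbp2, Kl and Calml4) and in 35.7% of all promoters. CCAAT or ATTGG was found in 1 of 7 (Htr2c) and in 37.4% of all. The other 3, TAATCC, which OTX factors bind, GTAAACA, a forkhead site, and TATAAA, were in none of the 7 and in 7.06%, 3.65% and 13.6% of all promoters. These are matches of letters and say nothing of binding.

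The libraries held 11182335 to 36773832 UMIs. The Ttr-rich class held 649 barcodes, 591 of them with at least 300 genes, beside 37290 nuclei outside and 188551 low-count barcodes. Tsc2 wt/wt mice 1 to 4 contributed 52, 23, 3 and 35 Ttr-rich barcodes and Tsc2 mut/mut mice 1 to 4 contributed 101, 35, 193 and 207. Of the 3 from Tsc2 wt/wt mouse 3, one held 22483 of the 22650 UMIs, so that its values rest on a single nucleus and stand apart, and several of the results that use it are also given without it. Between pairs of libraries 917 to 1058 barcode sequences were shared, of which 1 to 15 were nuclei and 0 were Ttr-rich in both. Mitochondrial RNA made up 2.42 to 12.5% of UMIs in the Ttr-rich class, 35.1 to 46.3% in nuclei outside and 48.0 to 49.8% in low-count barcodes.

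Other choroid plexus genes were also counted in the class. Another 36 choroid plexus genes were looked at. They were channels and transporters such as Aqp1 and Kcnj13, secreted proteins and receptors, and transcription factors and junction genes such as Otx2 and Cldn2. Of the 36, 32 had at least 100 UMIs in the class. By the median over mice, 29 of these 32 stood more than 10 times higher per UMI there than in nuclei outside. The 32 were kept by their UMIs in the class, which favors high values there. The share over all genes was not computed, so the count is a description with no test. Markers of 9 other cell types were not absent. The 8 ependymal genes summed to 44.2–164 CPM in Tsc2 wt/wt against 153–310 CPM in Tsc2 mut/mut mice with Dnah12 at 0, the 8 astrocyte or NSC genes to 0–563 and 66.2–171 CPM, and the 8 oligodendrocyte genes to 0–58.6 and 20.7–108 CPM. The 8 mural or fibroblast genes summed to 39.1–92.6 CPM in wild-type mice against 22.4–69.9 CPM in mutant ones and to 20.3–46.3 CPM in nuclei outside, with Rgs5, Col1a1 and Lum at 0. The 8 endothelial genes reached 47.5 CPM at most, with 6 of them at 0. The genotypes overlapped for each list.

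The edge of the class was graded. The 22 barcodes with 15 to 19 UMIs of the 3 genes had a mitochondrial share of 43.2%, and 22.7% of them had 300 genes. Just inside, the 10 barcodes with 20 to 24 had 28.1% and 60.0%. The 503 barcodes with 200 or more had 7.94% and 99.4%. The 7 genes that the rule did not use together stood at 11088 CPM just below the edge, 26958 CPM just above it and 17184 CPM in the 503. Of the 266 UMIs behind the value just above the edge, 77 were Htr2c UMIs of the 1 barcode named above.

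Among nuclei with at least 300 genes, the Ttr-rich share was 2.39%, 0.310%, 0.0457% and 1.10% in Tsc2 wt/wt mice 1 to 4 and 1.47%, 0.854%, 1.78% and 4.69% in Tsc2 mut/mut mice 1 to 4. The ranges overlapped. The mean was 0.962 ± 1.05% (SD, n = 4) against 2.20 ± 1.71%, a difference of 1.24 percentage points. Other assignments of the mice often gave a difference as large (exact two-sided permutation test over 70 assignments, p = 0.314). The difference was 0.931 points without Tsc2 wt/wt mouse 3 (exact p = 0.571) and 0.406 points without Tsc2 mut/mut mouse 4 (exact p = 0.600). Among nuclei of at least 500 genes it was 12.6 points (exact p = 0.143), from 2.74 ± 2.67% to 15.4 ± 19.6% (SD, n = 4 each). How much of the plexus a dissection takes and how many of its nuclei pass the tdTomato gate both enter this share and cannot be told apart here.

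Ttr, at chr18:20665280-20674321 on the plus strand, had 803924 UMIs in the class. It stood at 243706, 173724, 391921 and 251502 CPM in Tsc2 wt/wt mice 1 to 4 and at 266017, 207472, 238532 and 254377 CPM in the mutant mice. The highest value is that of the single nucleus of Tsc2 wt/wt mouse 3. Ttr reached 8802 UMIs in 1 barcode, with a median of 875, and all 649 barcodes held it, since the class is nearly defined by it.

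Enpp2 was counted in 97.5% of Ttr-rich barcodes. Its level was 15559, 8954, 7461 and 17665 CPM in Tsc2 wt/wt mice and 16446, 11605, 10222 and 10149 CPM in Tsc2 mut/mut mice, with full overlap of the genotypes. Ecrg4 and 2900040C04Rik, both used by the rule, varied little, at 1700–2561 and 1636–3388 CPM over the 8 mice. The lincRNA was nevertheless seen in only 81.0% of the barcodes, and in 17.2% of the 58 with fewer than 300 genes.

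The other genes were counted in fewer of the 649 barcodes: Igfbp2 in 79.5%, Kl in 74.3%, Calml4 in 72.9%, Sostdc1 in 70.9%, Folr1 in 63.5% and Htr2c in 45.0%. These shares depend on depth. With every barcode thinned to 500 UMIs, which left out 23 of the 649, the median share over mice was 93.9% for Enpp2, 54.2% for Ecrg4, 50.8% for 2900040C04Rik, 48.2% for Igfbp2, 33.0% for Calml4, 26.7% for Kl, 25.5% for Sostdc1, 19.7% for Folr1 and 8.28% for Htr2c. In nuclei outside, thinned the same way with 53 left out of 37290, the median share was 3.46% for Ttr, 2.59% for Igfbp2, 2.42% for Enpp2, 0.172% for Htr2c and at most 0.0849% for each of the others. Median depth before thinning was 92 to 9114 UMIs in the class and 883 to 1324 UMIs in nuclei outside.

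**Figure D1:**
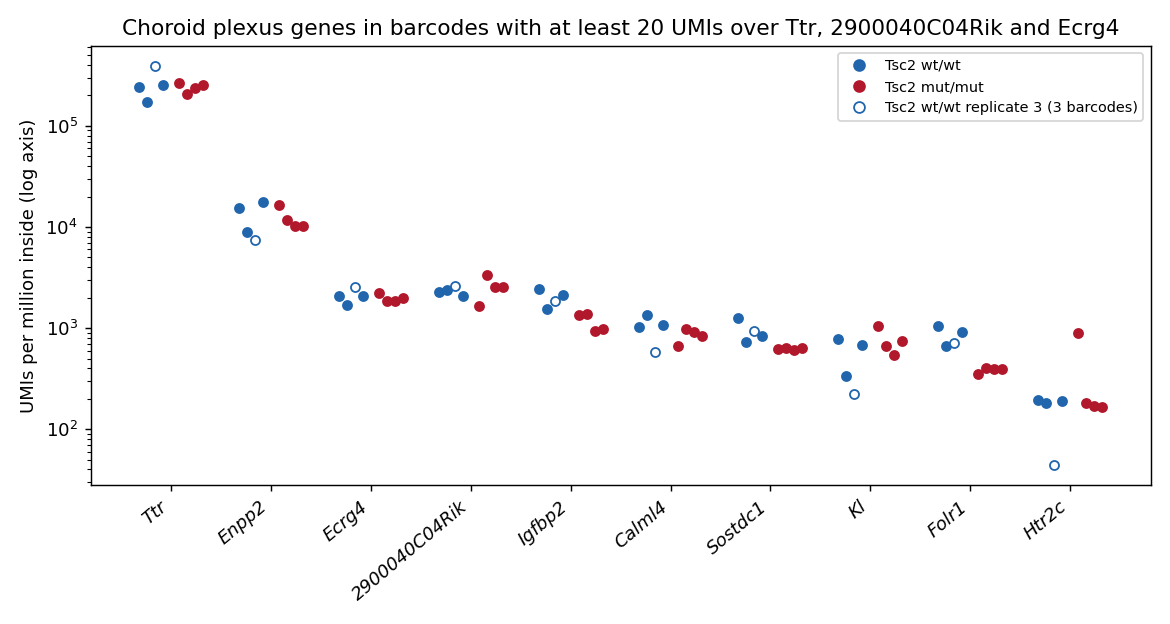
Level of each of the 10 genes in Ttr-rich barcodes (inside), in CPM on a log axis, with 1 point per mouse, Tsc2 wt/wt in blue and Tsc2 mut/mut in red, and an open point for Tsc2 wt/wt mouse 3 with its 3 barcodes. Blue and red points do not overlap for Folr1, Igfbp2 and Sostdc1, and 1 mutant mouse stands apart for Htr2c at 903 CPM.

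Htr2c, by contrast, was uneven. Its level was 193, 182, 44.2 and 192 CPM in Tsc2 wt/wt mice 1 to 4 and 903, 182, 168 and 167 CPM in Tsc2 mut/mut mice 1 to 4. In mutant mouse 1, a pair of barcodes held 168 and 77 of the 323 Htr2c UMIs, 75.9% of them, although they carried only 28 and 23 UMIs of the 3 rule genes. That pair also held 81 UMIs over the 9 marker lists of other cell types, where the top pair of any other mouse held 3 to 14. Without the pair the level in that mouse was 225 CPM, beside 140 to 173 CPM in 6 of the other mice without their own top pairs, and 0 in the 1 barcode left in Tsc2 wt/wt mouse 3.

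The 10 genes differed in how much of their RNA lay in the class. 2900040C04Rik had 96.3% of its library UMIs in Ttr-rich barcodes by the mean over mice (range 85.8 to 100%), and Ttr had 95.8% (86.9 to 98.3%). Sostdc1 followed with 90.9%, Ecrg4 with 89.4%, Folr1 with 86.8%, Calml4 with 86.2% and Kl with 79.7%. The ranges of these 7 genes overlapped. Enpp2 had 67.1% (30.2 to 93.4%), Htr2c 43.1% (3.03 to 74.8%) and Igfbp2 33.8% (7.50 to 65.4%). Tsc2 wt/wt mouse 3 gave the lowest value for these 3 genes, for Htr2c on 1 of 33 UMIs, and without it the means were 72.3%, 48.8% and 37.6%. Htr2c had over 50% of its UMIs in the class in 4 of the other 7 mice and Igfbp2 in 2 of 7. The class itself held 0.203 to 3.77% of the library UMIs.

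**Figure D2:**
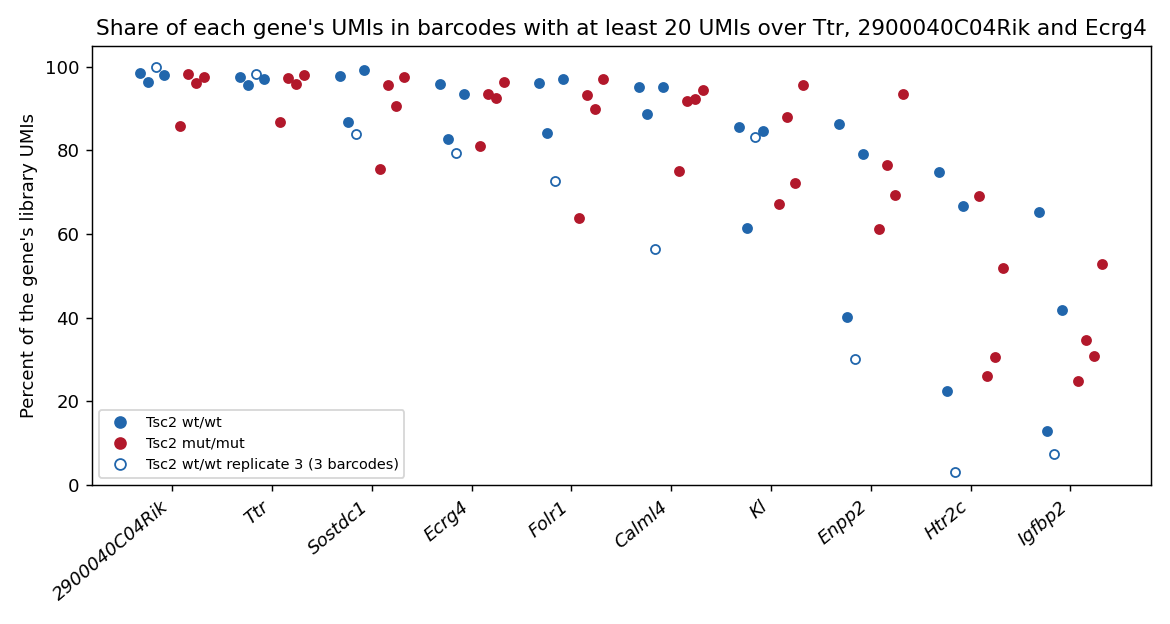
Percent of each gene's library UMIs found in Ttr-rich barcodes, with 1 point per mouse (Tsc2 wt/wt blue, with an open point for mouse 3, and Tsc2 mut/mut red), genes in order of their mean over 8 mice. 2900040C04Rik and Ttr sit highest at means of 96.3% and 95.8%, and Igfbp2 lowest at 33.8%, spread from 7.50 to 65.4%.

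Per UMI, Ttr was 5336 times higher in Ttr-rich barcodes than in nuclei outside by the median over mice. The median ratio was 2037 for 2900040C04Rik and 1450 for Sostdc1 over the 6 mice in which nuclei outside held a UMI, 1086 for Ecrg4 over 8 mice, and 590 for Kl over 7. It was 473 for Folr1, 388 for Calml4, 159 for Enpp2, 46.2 for Htr2c and 31.2 for Igfbp2. The 3 rule genes are high in this ratio by construction. The 7 others spanned it from 31.2 to 1450. Tsc2 wt/wt mouse 3 gave 112031 for Ttr, and without it the medians were 3652 for Ttr, 962 for Ecrg4, 526 for Kl, 423 for Folr1, 417 for Calml4, 166 for Enpp2, 56.2 for Htr2c and 29.3 for Igfbp2.

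Outside the class, Ttr was still counted widely but thinly. In low-count barcodes it stood at 224, 48.9, 11.01 and 130 CPM in Tsc2 wt/wt mice 1 to 4 and at 608, 70.3, 255 and 189 CPM in Tsc2 mut/mut mice 1 to 4. In nuclei outside the levels were 66.7, 21.0, 3.50 and 34.2 CPM and 231, 29.6, 141 and 135 CPM. Nuclei outside were lower than the low-count barcodes of the same mouse in 8 of 8 mice. Of the 188551 low-count barcodes, 11715 held 1 Ttr UMI, 1034 held 2 and 234 held 3 or more, with 19 the highest. The variance over the mean was 1.06 to 1.41 by mouse, in each mouse above the 1 that independent single molecules give. In Tsc2 mut/mut mouse 2, for 1, 7 barcodes held 3 or more at a mean of 0.0217 Ttr UMIs per barcode. Leaving out barcodes with at least 20 UMIs of the rule genes lowers this measure. The share of barcodes with a Ttr UMI was 8.17% in nuclei outside and 4.92% in low-count barcodes by the median over mice, at median depths of 883 to 1324 and 275 to 409 UMIs, an order that goes against the CPM and is not read further.

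Nuclei outside were also compared with low-count barcodes of the same mouse, gene by gene. The comparison asks only whether a transcript was higher or lower in barcodes with more detected genes. Of 12033 genes tested over 16 sums with the mouse as a block, 74.4% passed an adjusted p of 0.05 in edgeR's quasi-likelihood test, 37.9% higher and 36.5% lower in nuclei outside. Of the 10 genes, 5 passed the filter on low counts. Ttr and Ecrg4 are among them, but both classes are limited to fewer than 20 UMIs of the rule genes, a limit that deeper barcodes meet sooner, so their values are descriptions with no test. Ttr had a log2 fold change of −1.82 (SE 0.16) and Ecrg4 of −0.998 (SE 0.22). With the limit at 10 or 50 UMIs, Ttr was at −1.87 and −1.62 and Ecrg4 at −1.09 and −0.96, and with nuclei of at least 500 genes Ttr was at −2.97. Of the 3 genes that the rule did not use, 0 passed.

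These were Enpp2, Igfbp2 and Htr2c, at log2 fold changes of 0.24 (SE 0.13, adjusted p = 0.105), −0.22 (adjusted p = 0.0614) and 0.16 (adjusted p = 0.594). Enpp2 CPM in nuclei outside was 1.18 to 2.69 times that of low-count barcodes, above it in 8 of 8 mice. Its test passed with low-count barcodes of at least 200 and fewer than 300 genes (0.56, adjusted p = 0.000745) or with nuclei of at least 500 genes (0.81, adjusted p = 0.000582), and it turned to −0.24 (adjusted p = 0.281) against the 20000 barcodes with the fewest UMIs. Without Tsc2 wt/wt mouse 1, Tsc2 mut/mut mouse 1 or Tsc2 mut/mut mouse 3 it also passed (log2 fold changes of 0.33, 0.34 and 0.32), and Igfbp2 passed without Tsc2 mut/mut mouse 4 (−0.34, adjusted p = 0.000162).

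Of the 36 further choroid plexus genes, 10 were tested in this comparison, 6 higher and 3 lower in nuclei outside, with a median log2 fold change of 0.55 beside −0.01 over all genes tested. Higher were the channel gene Trpm3 (2.03), Rbm47 (1.81), Sulf1 (1.01), the cotransporter gene Slc12a2 (0.88), the transcription factor gene Otx2 (0.76) and Cab39l (0.33). Lower were Ptgds (−0.78), which encodes prostaglandin D2 synthase, the monoamine transporter gene Slc29a4 (−0.63) and Clic6 (−0.62). The calls for Trpm3, Rbm47, Sulf1, Slc12a2 and Ptgds held in all 15 alternatives. Clic6 lost its call in 4 of 14, among them without Tsc2 mut/mut mouse 1 (−0.35, adjusted p = 0.153) and against barcodes of at least 200 and fewer than 300 genes (−0.27, adjusted p = 0.230), and Otx2 in 3 of 14, among them without Tsc2 wt/wt mouse 2 (0.61, adjusted p = 0.0627) and against the 20000 barcodes with the fewest UMIs (0.25, adjusted p = 0.369). Slc29a4 lost it in DESeq2 (−0.61, adjusted p = 0.0648) and Cab39l against those 20000 barcodes (0.19, adjusted p = 0.133).

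If low-count barcodes held RNA from Ttr-rich nuclei alone and in the same proportions, each gene would keep the ratio to Ttr that it has in the class. Whether RNA outside nuclei keeps those proportions was not tested. Ttr is also the gene by which the rule mostly picks the class and limits low-count barcodes, which favors ratios above 1. The ratios are therefore descriptions with no test. For 2900040C04Rik the ratio to Ttr in low-count barcodes, divided by that in the class, had a median of 0.594 over 8 mice (0 to 1.08, above 1 in 1 mouse). Tsc2 mut/mut mice 1, 3 and 4, with 50, 15 and 26 of its 108 low-count UMIs, had 1.08, 0.885 and 0.994, and the lower values rest on 0 to 6 UMIs each. It was 1.48 for Sostdc1, 1.92 for Calml4, 2.08 for Ecrg4 and 2.23 for Folr1, genes with 63 to 211 UMIs in low-count barcodes. Kl stood at 5.26 and Enpp2 at 6.61, above 1 in 7 and 8 of 8 mice. Htr2c (33.4) and Igfbp2 (37.7) were far above, in 8 of 8 mice.

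Tsc2 wt/wt mouse 3 had only 26 Ttr UMIs in its low-count barcodes and gave the highest ratio for 7 of the 9 genes, up to 2390 for Htr2c, and 0 for 2900040C04Rik and Kl. Without it the medians were 0.616 for 2900040C04Rik, 1.24 for Sostdc1, 1.61 for Folr1, 1.74 for Ecrg4, 1.85 for Calml4, 5.66 for Enpp2, 6.16 for Kl, 27.7 for Htr2c and 35.7 for Igfbp2. By this ratio, with the limits given above, Igfbp2 and Htr2c had far more low-count RNA than their share of the Ttr-rich profile gives. Of the 32 further choroid plexus genes with at least 100 UMIs in the class, 28 had a median ratio above 2, 3 lay between 0.5 and 2, and 1 lay below 0.5. The ratio was not computed over all genes, so these counts are a description and not a result about choroid plexus genes.

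**Figure D3:**
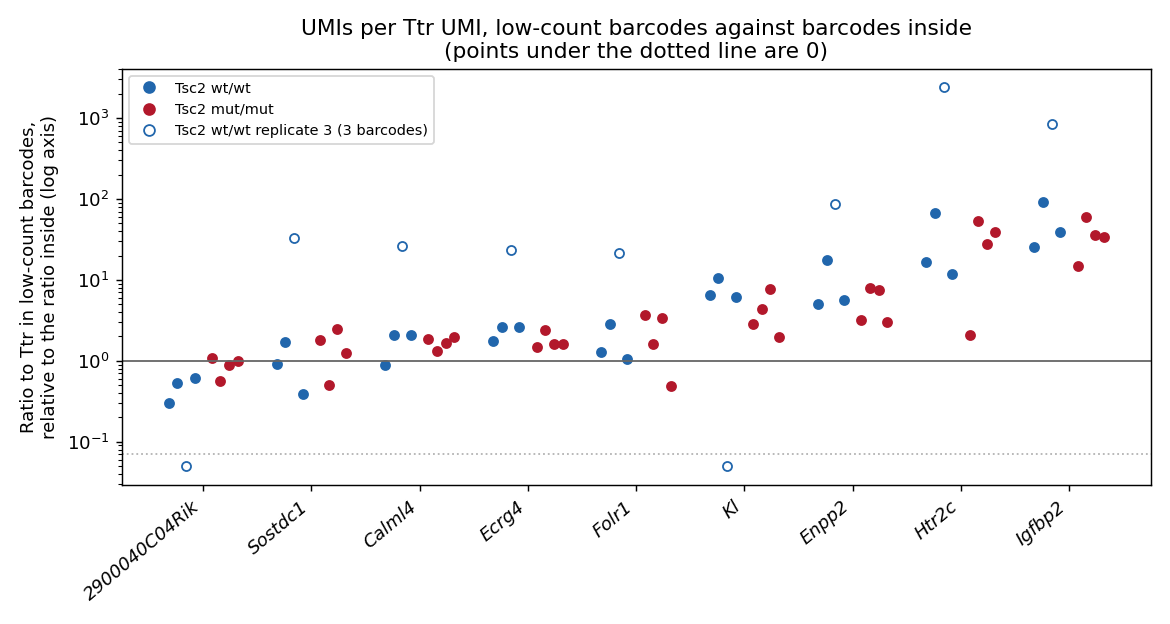
Ratio of each gene to Ttr in low-count barcodes divided by the same ratio in Ttr-rich barcodes (inside), on a log axis with a line at 1, with 1 point per mouse (Tsc2 wt/wt blue, with an open point for mouse 3, and Tsc2 mut/mut red), genes in order of their median; points under the dotted line are 0. 2900040C04Rik has the lowest median, 0.594, on 0 to 50 UMIs per mouse, and Igfbp2 and Htr2c lie above the line in each mouse, with medians of 37.7 and 33.4.

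Low-count barcodes with more Ttr also held more of some other members. In the 234 with at least 3 Ttr UMIs, Enpp2 stood at 1431 CPM (128 UMIs), against 52.9 CPM in the 175568 with 0, higher in 6 of the 7 mice that had such barcodes. Igfbp2 stood at 134 against 37.0 CPM and Kl at 134 against 2.44 CPM, each on 12 UMIs and higher in 4 of 7 mice. These are descriptions of a few molecules.

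The members were next followed across marker-rich nuclei outside the class. Nuclei outside were sorted by UMIs of 9 marker lists of 8 genes each, and a nucleus joined a list when it had at least 5 UMIs over it from at least 3 of its genes and more than over any other list. Such a class is a range of marker counts and not a cell type. It left 33307 of the 37290 nuclei unmarked, with 44.6 to 52.6% mitochondrial UMIs. In these, Ttr stood at 104.4 CPM, Enpp2 at 34.9 CPM and Igfbp2 at 52.2 CPM.

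Enpp2 was high in the 713 nuclei rich in oligodendrocyte markers. Its level there was 2178, 1892, 1858 and 1761 CPM in Tsc2 wt/wt mice 1 to 4 and 2010, 1796, 1583 and 1398 CPM in Tsc2 mut/mut mice 1 to 4, above the unmarked nuclei in 8 of 8 mice. These nuclei held 63.2% of the Enpp2 UMIs of all nuclei outside with 3.54% of the depth. With a minimum of 10 marker UMIs the pooled level was 1832 CPM over 676 nuclei, beside 1806 CPM. Enpp2 was also above the unmarked nuclei among 120 nuclei rich in endothelial markers, at 157 CPM and in 6 of 6 mice with at least 10 of them.

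Ependymal cells are the ciliated cells that line the ventricle. In the 313 nuclei rich in their markers, Calml4, Ecrg4 and Folr1 stood above the unmarked nuclei in most mice. Calml4 stood at 71.0 CPM on 62 UMIs, which were 63.3% of the Calml4 UMIs of all nuclei outside in 1.81% of the depth. Ecrg4 stood at 39.0 CPM on 34 UMIs and Folr1 at 36.7 CPM on 32 UMIs, 30.6% and 57.1% of their UMIs outside. Calml4 and Ecrg4 were above the unmarked nuclei in 7 of 7 mice with at least 10 such nuclei and Folr1 in 6 of 7. Ttr, at 37.8 CPM, was above in 0 of 7. The UMIs of Ttr and Ecrg4 limit nuclei outside, so the values of these genes are descriptions with no test. Whether the Calml4, Ecrg4 and Folr1 UMIs in these nuclei came from the plexus was not tested.

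**Figure D4:**
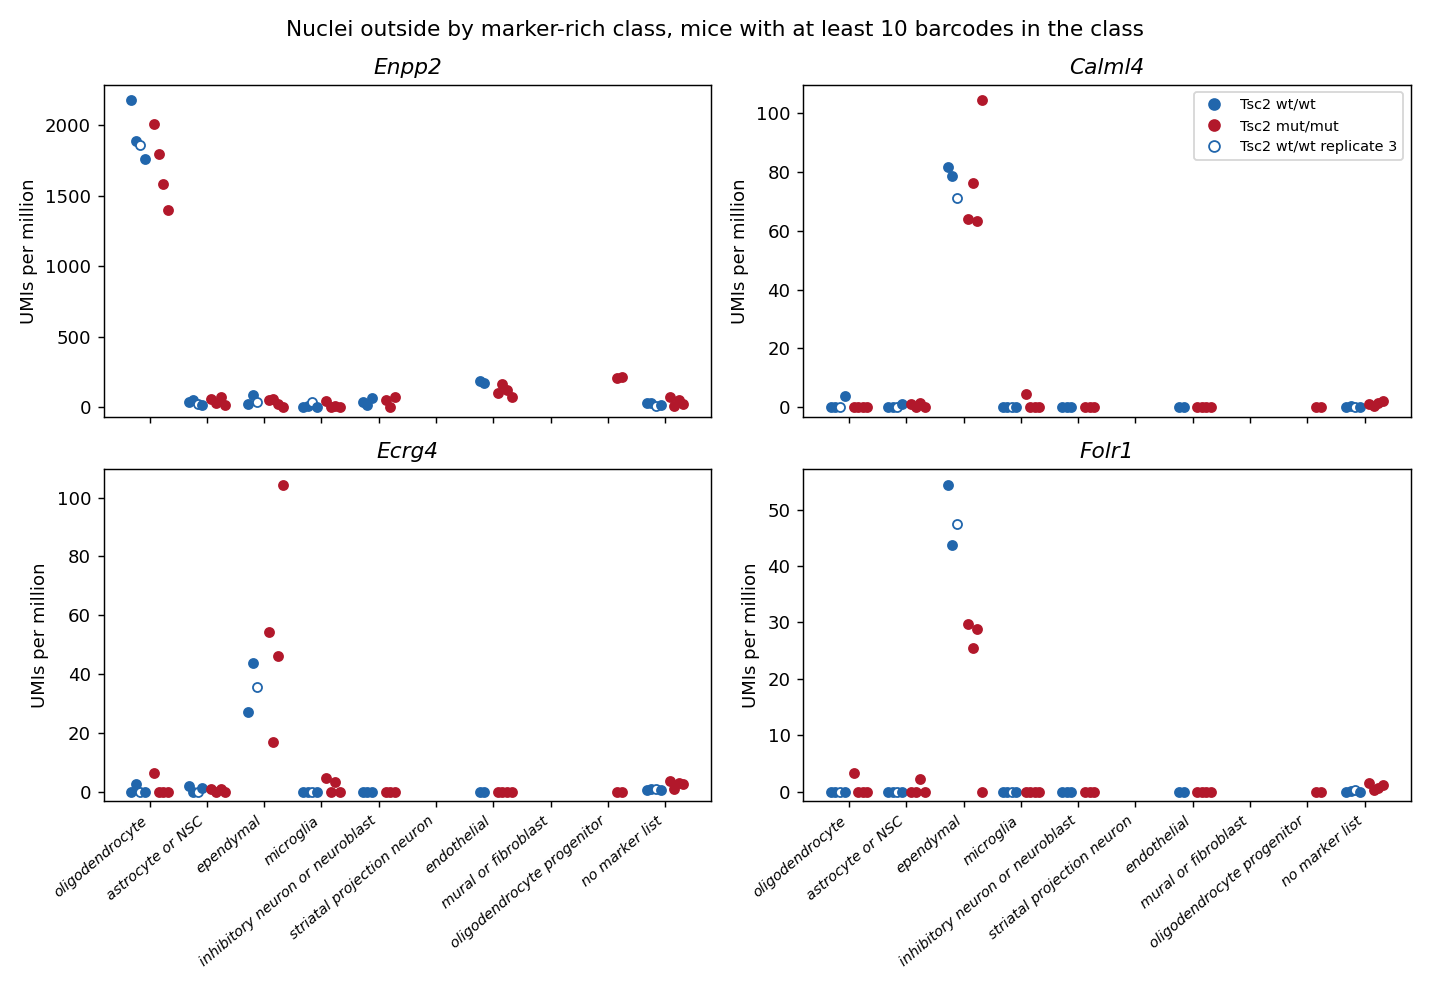
Levels of Enpp2, Calml4, Ecrg4 and Folr1 in nuclei outside, in CPM, by marker class, with 1 point for each mouse that had at least 10 nuclei in the class (Tsc2 wt/wt blue, with an open point for mouse 3, and Tsc2 mut/mut red). Enpp2 lies between 1398 and 2178 CPM in the oligodendrocyte class, and Calml4, Ecrg4 and Folr1 are highest in the ependymal class, apart from 1 mutant mouse with 0 Folr1 UMIs there.

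Igfbp2 and Htr2c had no such single place. Igfbp2 stood at 59.6 CPM in the 1953 nuclei rich in astrocyte or NSC markers, above the unmarked nuclei in 5 of 8 mice, and 311 of those nuclei lay near the minimum of 5 UMIs. Its level over all nuclei outside was 55.5, 60.0, 56.0 and 57.8 CPM in Tsc2 wt/wt mice and 45.9, 35.3, 41.8 and 41.1 CPM in Tsc2 mut/mut mice, without overlap. Htr2c stood at 136 CPM (84 UMIs) in 205 nuclei rich in inhibitory neuron markers, above the unmarked in 3 of 6 mice, and at 240 CPM (58 UMIs) in 68 rich in oligodendrocyte progenitor markers, outside the 2 mice that had at least 10 of these.

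The level of Ttr in low-count barcodes could follow how many Ttr-rich nuclei a library held. Over the 8 mice the Ttr-rich share of nuclei and Ttr CPM in low-count barcodes had Pearson's r = 0.288 and Spearman's rho = 0.762. Both sides rest on Ttr, by which the rule picks one class and limits the other. Both coefficients are therefore descriptions with no test. Without the 2 mice farthest from the median share, r was 0.452 (n = 6). The Spearman coefficient fell to 0.643 without any one of Tsc2 wt/wt mice 2, 3 or 4 or Tsc2 mut/mut mouse 2. These are the 4 mice with the lowest shares, so its size depends on them. It is not given within a genotype, where 4 mice are too few.

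The genotypes were compared on UMIs of Ttr-rich barcodes summed per mouse, with edgeR's quasi-likelihood test and p-values adjusted over all 3275 genes that passed the filter on low counts. All 10 genes passed the filter. Ttr, 2900040C04Rik and Ecrg4 are among them, but their UMIs pick the class, so their values are descriptions with no test. Of the 3275 genes, 0.641% passed an adjusted p of 0.05, 0.489% lower in Tsc2 mut/mut mice. Of the members that the rule did not use, 1 was lower and 0 higher. The median log2 fold change of all 10 was 0.04, beside 0.01 over all genes tested.

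Folr1 was the gene that passed. Its level in Ttr-rich barcodes was 1055, 664, 706 and 919 CPM in Tsc2 wt/wt mice 1 to 4 and 355, 401, 395 and 396 CPM in Tsc2 mut/mut mice 1 to 4. The groups did not overlap, and the mutant mice lay close together. The mean was 836 ± 184 CPM (SD, n = 4) against 387 ± 21.3 CPM, a log2 fold change of −1.05 (SE 0.17, edgeR adjusted p = 0.00122), lower in 4 of 4 mutant mice than in any Tsc2 wt/wt mouse. It stayed below the threshold without any one mouse except Tsc2 wt/wt mouse 1 (−0.88, adjusted p = 0.0862), and without Tsc2 wt/wt mouse 3 and Tsc2 mut/mut mouse 1 together it was −1.12 (adjusted p = 0.00572).

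Depth and mitochondrial share moved with genotype in these barcodes. The median was 9114, 6361 and 6970 UMIs in Tsc2 wt/wt mice 1, 2 and 4 (92 in mouse 3) and 2790 to 5092 UMIs in the mutant mice, and mitochondrial RNA was 2.42–7.84% against 7.90–12.5%. The ependymal markers, 7 of 8 of them above 0, summed to 129 ± 56.8 CPM against 202 ± 73.9 CPM (SD, n = 4) with overlap, and ependymal-rich nuclei held Folr1. In barcodes of at least 5000 UMIs, Folr1 was 628–1066 CPM in Tsc2 wt/wt against 384–434 CPM in Tsc2 mut/mut mice, with a log2 fold change of −1.04 (SE 0.18, adjusted p = 0.0106). This minimum was set after seeing the data and does not match depth between genotypes. It left 39, 15, 1 and 26 barcodes in Tsc2 wt/wt mice 1 to 4 and 29, 18, 60 and 83 in the mutant mice. The part of depth, mitochondrial RNA and ependymal RNA in the result was not tested.

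Igfbp2 and Sostdc1 were the other members without overlap in CPM, 3 of 10 with Folr1, where 6.11% of the 3275 genes did not overlap and 4.55% were lower in mutant mice. Igfbp2 was 2454, 1550, 1854 and 2110 CPM in Tsc2 wt/wt mice and 1345, 1369, 932 and 978 CPM in Tsc2 mut/mut mice. Sostdc1 was 1245, 729, 927 and 834 CPM against 618, 641, 611 and 632 CPM. For each of the 3 the exact two-sided permutation test gave p = 0.0286, the smallest value that 4 against 4 mice allow. Groups without overlap always give this value, so the p only restates the lack of overlap. It was not adjusted over the 10 genes. Without Tsc2 wt/wt mouse 3 the p was again the smallest possible.

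In edgeR neither passed: Igfbp2 had a log2 fold change of −0.69 (SE 0.18, adjusted p = 0.0808) and Sostdc1 of −0.48 (SE 0.17, adjusted p = 0.187). Igfbp2 passed without Tsc2 wt/wt mouse 2 (adjusted p = 0.00368) or Tsc2 mut/mut mouse 1 (adjusted p = 0.00845), and Sostdc1 without Tsc2 wt/wt mouse 2 (adjusted p = 0.0281). In barcodes of at least 5000 UMIs the Igfbp2 ranges overlapped, at 1490–2480 against 982–1494 CPM, and the Sostdc1 ranges did not, at 701–1266 against 606–633 CPM.

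**Figure D5:**
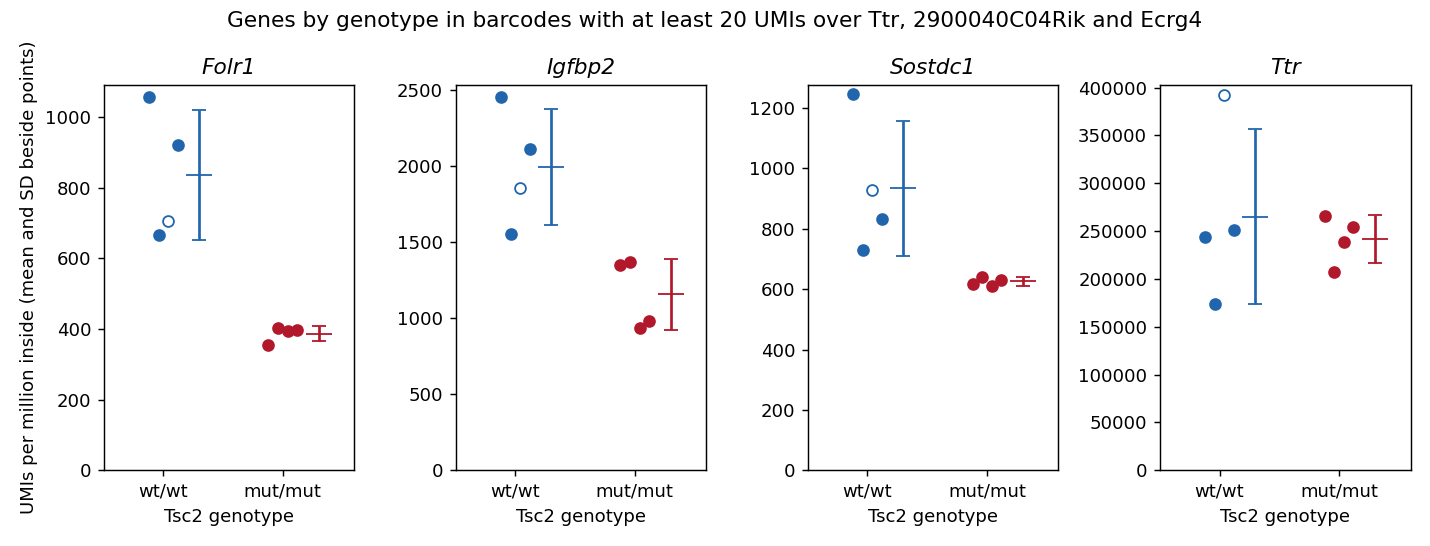
Levels of Folr1, Igfbp2, Sostdc1 and Ttr in Ttr-rich barcodes (inside), in CPM from 0, by Tsc2 genotype, with 1 point per mouse (open for Tsc2 wt/wt mouse 3) and the mean with its SD (n = 4) beside the points. Folr1, Igfbp2 and Sostdc1 do not overlap between genotypes, with Folr1 at 664 to 1055 against 355 to 401 CPM, and Ttr overlaps.

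The remaining genes that the rule did not use did not pass. Enpp2 had a log2 fold change of 0.08 (SE 0.31, adjusted p = 0.972), Calml4 of −0.20 (adjusted p = 0.606) and Kl of 0.49 (adjusted p = 0.646). The rule genes, whose UMIs pick the class, are given as descriptions with no test. Ttr, the main product of the tissue, stood at 0.00 (SE 0.30), Ecrg4 at 0.08 and 2900040C04Rik at 0.24. Calml4 was 1031, 1342, 574 and 1067 CPM in Tsc2 wt/wt and 671, 989, 916 and 832 CPM in Tsc2 mut/mut mice, and Kl was 777, 332, 221 and 679 against 1038, 666, 543 and 737 CPM, both with overlap. Htr2c had 1.10 (SE 0.82, adjusted p = 0.623), and −0.03 without the mutant mouse whose pair of barcodes carried most of it. With standard errors of 0.31 and 0.82, changes of the size seen for Folr1 could be missed for Enpp2 or Htr2c.

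Of the 36 further choroid plexus genes, 32 were tested in Ttr-rich barcodes, 1 lower and 0 higher, with a median log2 fold change of −0.05. The one was Kcnj13, a potassium channel of the plexus, at 560–948 CPM in Tsc2 wt/wt against 379–484 CPM in Tsc2 mut/mut mice (log2 fold change −0.78, SE 0.18, adjusted p = 0.0476). It lay at the edge of the threshold and lost its call in 11 of 18 alternatives, 6 of them the removal of a single mouse (Tsc2 wt/wt mice 1, 3 and 4 and Tsc2 mut/mut mice 2, 3 and 4), with an adjusted p up to 0.431 (without Tsc2 wt/wt mouse 1, −0.59).

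In the ependymal-rich nuclei outside the class, Folr1 was 54.4, 43.8 and 47.5 CPM in Tsc2 wt/wt mice 1 to 3 and 29.6, 25.4, 28.9 and 0 CPM in Tsc2 mut/mut mice 1 to 4. Tsc2 wt/wt mouse 4 had 1 UMI in 7 such nuclei. With that mouse left aside the groups did not overlap, but the share of all genes without overlap in these nuclei was not computed. Each value rests on 0 to 8 UMIs, and this gene was looked at here after its values were seen. It is a description with no test and does not add to the result in Ttr-rich barcodes.

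In nuclei outside, 0% of 12805 genes passed in the same test between genotypes (0 genes, with 427 at an unadjusted p under 0.05 and 4 past the adjusted threshold in DESeq2), and of the 10 genes 6 were tested and 0 passed. Ttr and Ecrg4 are among the 6, but their UMIs limit the class, so their values are descriptions with no test. Ttr had a log2 fold change of 2.17 with overlapping mice. Htr2c stood at 1.56, 3.24, 3.23 and 1.92 CPM in Tsc2 wt/wt mice and at 5.83, 13.8, 13.9 and 4.63 CPM in Tsc2 mut/mut mice, without overlap. Its log2 fold change was 1.97 (SE 0.40, edgeR adjusted p = 0.992), and it was past the threshold in DESeq2 alone (adjusted p = 0.0308). Few nuclei held it: in Tsc2 mut/mut mouse 2, its 72 UMIs lay in 15 of 3365 nuclei. The share of nuclei with a Htr2c UMI overlapped, at 0.458% in Tsc2 wt/wt mouse 3 and 0.446% in Tsc2 mut/mut mouse 2. Igfbp2, with the values given above, was lower without overlap, at −0.39 (adjusted p = 0.992). Thus 2 of the 6 did not overlap, where 2.7% of all genes did not (1.34% lower and 1.36% higher in mutant mice). 2900040C04Rik, too low to be tested, was 0.936, 0.216, 0 and 0 CPM against 1.35, 1.15, 1.56 and 2.83 CPM on 0 to 17 UMIs per mouse, a description with no test since its UMIs limit the class. For Htr2c and Igfbp2 the exact permutation test gave the smallest possible p = 0.0286, a value fixed by the lack of overlap. Of the 36 further choroid plexus genes 10 were tested and 0 passed; by list, their extremes were Trpm3 (−0.51) and Clic6 (0.92), Lbp (−0.56) and Ptgds (1.04), and Cab39l (−0.14) and Otx2 (0.32).

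In low-count barcodes 0.227% of 11878 genes passed and 0 of the 6 members tested did. Igfbp2 had a log2 fold change of −0.44 (adjusted p = 0.398) and Htr2c of 0.75 (adjusted p = 0.425). Ttr, at 1.43, and Ecrg4 are among the 6, but their UMIs limit the class, so their values are descriptions with no test. Of the 36 further choroid plexus genes 10 were tested there and 1 was higher, Ptgds, at 92.8–150 CPM in Tsc2 wt/wt against 173–262 CPM in Tsc2 mut/mut mice (log2 fold change 0.81, SE 0.14, adjusted p = 0.00681). Its call was lost without Tsc2 mut/mut mouse 4 (adjusted p = 0.0714), with barcodes of at least 200 and fewer than 300 genes (adjusted p = 0.414) and with the 20000 barcodes of fewest UMIs (adjusted p = 0.116). Ptgds is also known from meninges and oligodendrocytes.

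Summed over all deposited barcodes, where fewer plexus cells and less RNA per cell cannot be told apart, 0.0456% of 15360 genes passed and 0 of the 10 members. Folr1, a passing gene within the Ttr-rich class, stood there at −0.81 (adjusted p = 0.820), Ttr at 0.44 (adjusted p = 0.902) and Htr2c at 1.13 (adjusted p = 0.602). Of the 36 further choroid plexus genes 33 were tested and 0 passed, with extremes by list of Kcnj13 (−0.63) and Slc4a5 (0.62), Lbp (−0.76) and Ptgds (0.79), and Cldn2 (−0.03) and Lmx1a (1.06). The 4 genotype comparisons use the same mice and share barcodes, so they are not independent of each other.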

How the data were processed

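Nuclei of the V-SVZ of 8 mice (4 Tsc2 wt/wt, 4 Tsc2 mut/mut, 1 library each) were profiled with a droplet 3′ assay. The authors deposited raw UMI counts per gene and barcode, made with Cell Ranger 7.0.1 on GRCm38 (mm10) with 60000 barcodes asked for per library; the submitters' processing notes also name Seurat 4. The counts were used as deposited. Groups came from the genotype labels, and the members and gene lists were chosen with earlier results of these data known.

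UMIs were summed per mouse over each class of barcode and scaled to CPM, the UMIs of a gene per 1000000 of that sum. Sums were tested with edgeR 4.0.16 (glmQLFit with robust fitting, glmQLFTest, TMM, filterByExpr) in R 4.3.3, with Benjamini-Hochberg adjustment over all genes tested. The mouse is the replicate. The study compared cells within clusters, and here no clustering or doublet caller was run; leaving out the 5% of barcodes with the most UMIs was an alternative, as were DESeq2 1.42.0, no filter, other limits on UMIs and genes, the replicate number as a block, and leaving out each mouse. Added after seeing the data were barcodes of at least 5000 UMIs, Ttr left out of the library size, leaving out 2 mice together, and leaving out the top Htr2c barcodes. Single values were compared by exact permutation over 70 assignments of mice (scipy 1.17.1), whose smallest p is 0.0286.

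On simulated counts the Ttr-rich comparison (3275 genes) recovered 63% of 2-fold and 99% of 4-fold changes, and nuclei outside (12805 genes) 48% and 93%. Named were all 10 members, each companion choroid plexus gene past an adjusted p of 0.05 in a comparison (up to 10; where none passed, the genes of highest and lowest fold change in each of 3 lists), and the 10 genes most like the members in their share inside Ttr-rich barcodes. Depths were 11182335 to 36773832 UMIs per library; gene counts of a few UMIs carry counting error of that order.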

Additional observations from a re-analysis of the deposited data

Results flagged for a closer look

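In 102 groups of 4 mice (each member, class of barcode and genotype), 8 had 1 mouse far from the other 3, by a gap to the nearest that took up nearly the whole range (Dixon's 95% limit); chance alone flags about 1 group in 20. Of the values, 4 belong to Tsc2 mut/mut mouse 1. In Ttr-rich barcodes its Htr2c level was 903 CPM beside 167 to 182 CPM in the others, of which a pair of barcodes held 75.9%, and its Folr1 level was 355 CPM beside 395 to 401 CPM, still on the low side of every Tsc2 wt/wt mouse. Its share of library UMIs in Ttr-rich barcodes was 85.8% for 2900040C04Rik beside 96.1 to 98.2%, and 75.0% for Calml4 beside 91.9 to 94.5%.

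Tsc2 wt/wt mouse 3, with 3 Ttr-rich barcodes, had Htr2c at 44.2 CPM, which is 1 UMI, beside 182 to 193 CPM, and 56.5% of its Calml4 UMIs in the class beside 88.8 to 95.1%. In Tsc2 wt/wt mouse 2, with 23 such barcodes, 61.4% of Kl UMIs lay in the class beside 83.3 to 85.7%. In low-count barcodes of Tsc2 wt/wt mouse 1, Folr1 stood at 1.26 CPM beside 0.424 to 0.532 CPM. What sets these mice apart was not tested.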

How the results depend on the processing

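The number of genes past an adjusted p of 0.05 between genotypes moved with the processing; the cause was not tested. In Ttr-rich barcodes it was 21, with 78 without a filter on low counts, 37 without Tsc2 wt/wt mouse 3 and Tsc2 mut/mut mouse 1, and 1 (without Tsc2 wt/wt mouse 1) to 99 (without Tsc2 wt/wt mouse 2) on leaving out each mouse. In nuclei outside it was 0, with 4 in DESeq2, 2 without the filter and 0 to 3 on leaving out each mouse. In low-count barcodes it was 27, with 110 without the filter, 5 in the 20000 barcodes with the fewest UMIs and 17 to 44 on leaving out each mouse. Over all barcodes it was 7, with 49 in DESeq2, 15 without the filter, 2 without the 2 mice and 2 to 19 on leaving out each mouse. Nuclei outside against low-count barcodes stayed within 1.5 times of 8955. With the replicate number as a block the counts were 57, 1, 36 and 2 in the 4 genotype comparisons, and Kl passed in Ttr-rich barcodes (0.68, adjusted p = 0.0437). Same-numbered mice correlated between −0.27 and 0.30, and not every mouse correlated best with its own. The labels do not say whether same-numbered mice were handled together, and these correlations cannot decide it.

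Spearman's rho ranged from 0.643 to 0.857 on leaving out each mouse. Sign changes fell on members that passed no test. In Ttr-rich barcodes Ttr was at −0.011 with at least 10 UMIs, −0.0011 with at least 300 genes, −0.030 with at least 5000 UMIs, and −0.15 to 0.23 on leaving out each mouse; Enpp2 was at −0.36 without the 2 mice and −0.18 to 0.33 on leaving out each; Ecrg4 ranged from −0.035 to 0.17; and Htr2c was at −0.091 without the 2 mice and −0.025 to 1.39 on leaving out each. Over all barcodes Ttr ranged from −0.13 to 1.45. Between nuclei outside and low-count barcodes Enpp2 was at −0.24 against the 20000 with the fewest UMIs, and Htr2c ranged from −0.16 to 0.30. The difference in the Ttr-rich share of nuclei kept its direction in each alternative, and Folr1 kept its call in each but the removal of Tsc2 wt/wt mouse 1. Depth limits Htr2c and the lincRNA outside the Ttr-rich class, where they had 338 and 48 UMIs in nuclei outside.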

Other observations

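The genes most like the members in where their RNA lay were sought among 3182 other genes with at least 100 UMIs in Ttr-rich barcodes, by the mean over mice of the percent of library UMIs in those barcodes; the measure uses the same barcodes that the 3 rule genes picked, and it is a description. It was 50% or more for 70 genes. The highest were 4933429O19Rik (97.5%, over 7 mice), Defb11 (96.3%), a beta-defensin gene, Prr32 (95.6%), Frmpd1os (95.0%, over 7 mice), Kcne2 (94.5%), a potassium channel subunit gene, Wfdc2 (92.7%), Smim22 (91.9%), Ooep (91.7%), Slc16a8 (91.5%), a monocarboxylate transporter gene, and Ins2 (91.1%, over 7 mice), an insulin gene. Kcne2 and Wfdc2 are on the lists of further choroid plexus genes. Ins2 had 322 of its 354 library UMIs in the class and Defb11 had 795 of 822, beside 7972 of 8267 for 2900040C04Rik.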
